A study of Mus musculus with 8 samples.

Results

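Crypt stem cell and Wnt target genes were followed in the distal ileum of Cftr null mice. The set was defined by name and held Lgr5, Olfm4, Ascl2, Smoc2, Axin2, Rnf43, Znrf3, Sox9, Myc and Tnfrsf19, and all 10 were present among the 41128 gene symbols of the deposited table. RNA came from whole tissue sections less than 6 cm from the ileocecal valve, with 1 library per mouse and 8 libraries in all. The tested animals were Cftr -/- mice carrying the Cftrtm1Cam allele on the congenic FVB background (KO), and each was paired with a sex-matched Cftr N/N littermate (WT). 3 couples were untreated (KO n = 3, WT n = 3; couples 1 and 3 female, couple 2 male). A further couple, labelled female, drank antibiotics, metronidazole (0.5 g/L) together with ciprofloxacin (0.3 g/L). All mice had eaten a low fiber diet and had received an osmotic laxative that was withdrawn before sampling. The labels used here give no ages.

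Stem cells at the base of intestinal crypts divide continuously and are maintained by Wnt ligands and R-spondins from Paneth cells and the surrounding mesenchyme. Wnt ligands bind Frizzled and LRP receptors, which stabilises beta-catenin and switches on TCF-dependent target genes. Several of these targets, among them Axin2, Rnf43 and Znrf3, act back on the pathway as inhibitors.

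Values are the authors' and were taken as RPKM-like (per gene length), although their scaling is not named, and differences are on the log2(value + 1) scale, which understates the change of low genes. Libraries of couples 1 and 2 shared 1 distribution of values. Those of couple 3 and of the antibiotic couple did not have it, so each gene was compared first within its couple. In the antibiotic couple all values summed to 346794 in KO and 361922 in WT, and the part of scaling in that comparison was not tested. Read depth is unknown, and how precisely low values were counted could not be stated. Cftr checked the labels: its value was 3.74, 2.65 and 3.17 in KO libraries of couples 1, 2 and 3, against 12.4, 9.94 and 10.1 in their WT littermates, and 4.94 in KO against 13.8 in WT ileum under antibiotics. Pan-epithelial markers (12 of 12 in the table, 0 of them at 0 in every untreated library) summed to 5705 to 7200 in untreated KO and 4821 to 7588 in untreated WT libraries. In whole tissue, fewer cells of a type and less RNA per cell cannot be told apart.

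The 10 genes did not differ in a common direction in untreated KO ileum. Lgr5 was lower and Myc higher in KO in each of the 4 couples. Olfm4 was also lower in each, with log2 differences of -0.16, -0.06 and -0.31 in couples 1, 2 and 3 and -0.04 under antibiotics. The rest had differences of mixed sign over the 4 couples. With limma over 11717 tested genes and Benjamini-Hochberg adjustment, 0 of the 10 passed an adjusted p of 0.05, where 2.16% of all tested genes did (1.15% higher and 1.01% lower in KO). Lgr5 alone of the 10 had an unadjusted p under 0.05 (0.0434), as 16.0% of tested genes had. With the littermate couple as a block, 1 of the 10 passed, Myc, against 18.3% of tested genes (8.40% higher and 9.91% lower in KO). Lgr5 and Myc were the 2 of the 10 with an unadjusted p under 0.05 in that fit, as 38.9% of tested genes had. The blocked fit called 984 genes higher and 1161 lower over all tested genes. With any 1 couple left out it called 130 to 276 higher and 126 to 303 lower, so most of its calls were lost for genes in general. The median log2 difference was -0.08 over the 10 genes (4 above 0 and 6 below) and -0.01 over all tested genes. All 10 passed the filter on low values (at least 1 in at least 3 untreated libraries), although Lgr5, Znrf3 and Tnfrsf19 lay close to it.

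**Figure D1:**
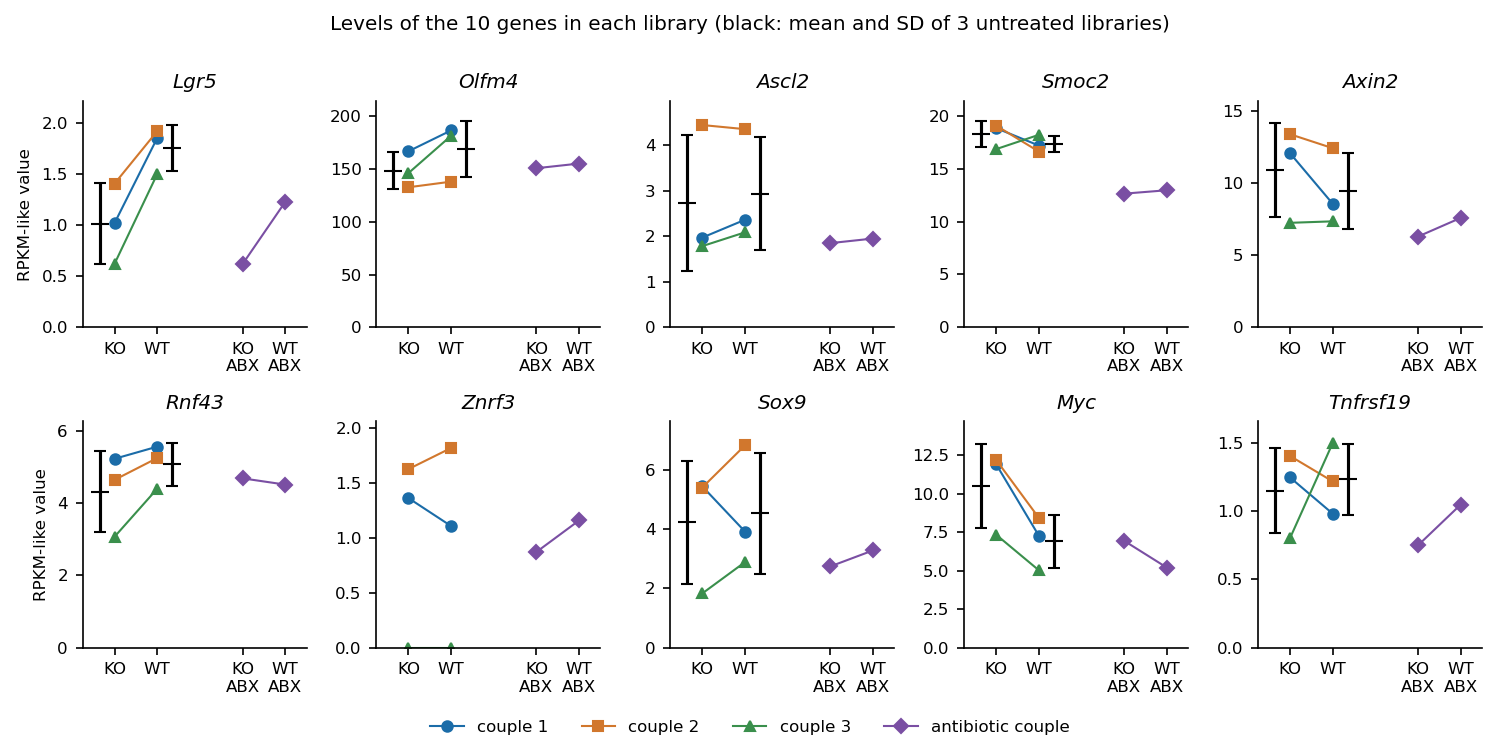
RPKM-like value of each of the 10 genes (y axis, from 0, a scale per gene) in KO and WT libraries without antibiotics and with them (ABX). Lines join littermates, and black bars give the mean and SD of the 3 untreated libraries of a genotype (not drawn for Znrf3, which is listed at 0 in couple 3). The Lgr5 lines show the lower value in KO and the Myc lines the higher value in KO in all 4 couples.

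Lgr5 encodes a receptor for R-spondins and is the defining marker of crypt base columnar stem cells. Its value was 1.02, 1.41 and 0.622 in KO libraries of couples 1, 2 and 3, against 1.85, 1.92 and 1.50 in their WT littermates. Every untreated KO value lay below every untreated WT value, an arrangement with KO lower that 12.1% of tested genes shared. The group values were 1.02 ± 0.393 in KO and 1.76 ± 0.226 in WT ileum (SD, n = 3 each), and the KO to WT ratio was 0.550, 0.733 and 0.414 in couples 1, 2 and 3. In limma the log2 difference was -0.47 (SE 0.19, 95% interval -0.92 to -0.02), with an adjusted p of 0.295. With the couple as a block the limma adjusted p was 0.0541 (SE 0.11). With a pseudocount of 0.1 in place of 1 the log2 difference was -0.79. The Lgr5 gene occupies bases 115450311 to 115587780 of chromosome 10 on the minus strand of GRCm38, with an exon length of 10264 bases. It thus falls in the fifth of tested genes with the longest exons, where the median log2 difference of all genes was -0.12, and the part of gene length in its difference was not tested.

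Olfm4, a secreted glycoprotein abundant in crypt base columnar cells of the mouse small intestine, was by far the highest of the 10 on this per-length scale. Its value was 167, 133 and 146 in KO libraries of couples 1, 2 and 3, against 187, 138 and 182 in their WT littermates. KO was the lower littermate in each couple, as for 32.5% of tested genes, but the ranges of the genotypes overlapped. The log2 difference was -0.18 (SE 0.22, 95% interval -0.68 to 0.33, limma adjusted p = 0.757; 0.21 with the couple block). Exons of Olfm4 overlap the non-coding gene Gm6999 on the same strand, so reads of the 2 could not be told apart where they overlap.

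Ascl2 encodes a basic helix-loop-helix transcription factor that sets stem cell identity in the crypt. It was listed at 1.97, 4.44 and 1.78 in KO libraries of couples 1, 2 and 3, against 2.36, 4.35 and 2.08 in their WT littermates. The values differed between couples far more than within them: both mice of the male couple 2 stood near 4.4 while the others stood at or below 2.36. The log2 difference between genotypes was -0.10 (SE 0.32, limma adjusted p = 0.919; 0.456 with the block). Sex and litter cannot be told apart in this pattern, because only 1 couple was male.

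Smoc2, a secreted calcium-binding matrix protein and crypt base marker, was 18.8, 19.1 and 16.9 in KO libraries of couples 1, 2 and 3, against 17.2, 16.6 and 18.2 in their WT littermates. KO was higher in 2 couples and lower in couple 3. The log2 difference was 0.07 (SE 0.14, 95% interval -0.27 to 0.41, limma adjusted p = 0.871), the narrowest interval among the 10 genes. Smoc2 stood at percentile 74.5 to 78.4 of tested genes in untreated libraries, while Lgr5 stood at percentile 1.91 to 14.2 of the same libraries.

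Tnfrsf19, which encodes the TNF receptor family member TROY, an Lgr5-associated inhibitor of Wnt signalling, had low values throughout. They were 1.25, 1.41 and 0.802 in KO libraries of couples 1, 2 and 3, against 0.982, 1.22 and 1.50 in their WT littermates. The KO littermate was higher in couples 1 and 2 and lower in couple 3. The log2 difference was -0.06 (SE 0.18, limma adjusted p = 0.921; 0.818 with the block).

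**Figure D2:**
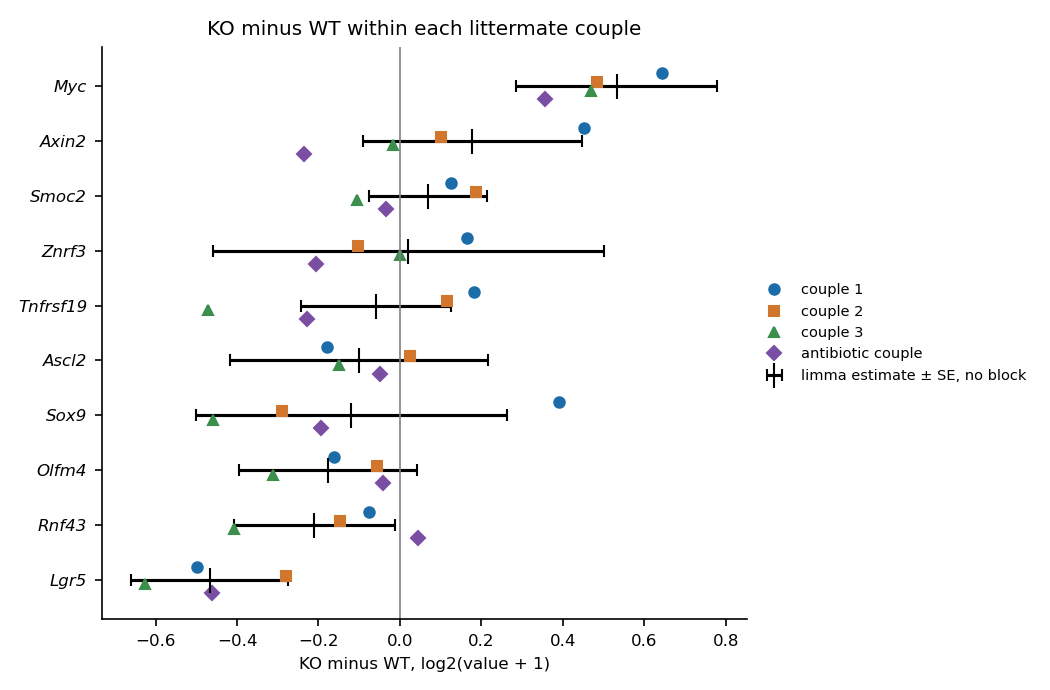
KO minus WT difference on the log2(value + 1) scale (x axis) for each of the 10 genes (y axis), with coloured symbols for the 4 littermate couples and black bars for the limma estimate ± SE over the 3 untreated couples. Myc lies to the right of 0 and Lgr5 and Olfm4 to the left in all 4 couples, and the other genes lie on both sides.

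Among the feedback inhibitors, Axin2 encodes a scaffold of the beta-catenin destruction complex and is widely used as a reporter of Wnt activity. It was 12.1, 13.4 and 7.26 in KO libraries of couples 1, 2 and 3, against 8.59, 12.4 and 7.36 in their WT littermates. The KO value was clearly above WT in couple 1 only, and couple 3 had the lowest values of both genotypes. The log2 difference was 0.18 (SE 0.27, limma adjusted p = 0.807; 0.308 with the block). Exons of Axin2 overlap the antisense gene Gm11670, and since strand-specific counting is not stated, reads of the 2 cannot be told apart there.

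Rnf43 and Znrf3 are paralogous transmembrane E3 ubiquitin ligases that remove Frizzled receptors from the cell surface. Rnf43 was 5.23, 4.65 and 3.07 in KO libraries of couples 1, 2 and 3, against 5.57, 5.25 and 4.40 in their WT littermates. It was lower in KO in each untreated couple, with overlapping ranges and a log2 difference of -0.21 (SE 0.20, limma adjusted p = 0.669; 0.191 with the block). Znrf3 was 1.36 and 1.63 in KO libraries of couples 1 and 2, against 1.11 and 1.82 in their WT littermates, and was listed at 0 in both libraries of couple 3. A value of 0 is not read as absence, since couple 3 listed 11912 to 11931 genes above 0 and couples 1 and 2 each listed 20896. The log2 difference of Znrf3 was 0.02 (SE 0.48, limma adjusted p = 0.988), with a 95% interval of -1.10 to 1.14. With the block the SE was 0.11. Both fits took the 0 of couple 3 as a measured value. The difference, its interval and its ranges with libraries left out therefore rest partly on these values.

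Promoter windows from RefSeq (GRCm38.p6, 250 bases before to 50 after the start) were available for 5 of the 10 genes, namely Olfm4, Ascl2, Axin2, Rnf43 and Tnfrsf19. They were searched on both strands for the TCF/LEF core motifs CTTTGAA and CTTTGAT, which differ in the last base only. A match was found in 1 of the 5 genes, Tnfrsf19, against 9.88% of all genes in the table with at least 1 matching window and 8.67% of all windows. The window of the Tnfrsf19 start with the match (chr14:61037938-61038237, minus strand) and that of Axin2 (chr11:108920099-108920398, plus strand) are shown 5′ to 3′ to set a window with the motif beside that of the best known feedback target. Capitals mark the match, which is CTTTGAT on the strand opposite to the gene, and the Axin2 window holds none.
Tnfrsf19: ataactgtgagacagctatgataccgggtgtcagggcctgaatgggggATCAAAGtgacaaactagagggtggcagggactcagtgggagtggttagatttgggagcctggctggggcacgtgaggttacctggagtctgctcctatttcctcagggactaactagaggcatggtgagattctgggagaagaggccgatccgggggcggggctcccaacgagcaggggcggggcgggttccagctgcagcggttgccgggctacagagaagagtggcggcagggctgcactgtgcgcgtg
Axin2: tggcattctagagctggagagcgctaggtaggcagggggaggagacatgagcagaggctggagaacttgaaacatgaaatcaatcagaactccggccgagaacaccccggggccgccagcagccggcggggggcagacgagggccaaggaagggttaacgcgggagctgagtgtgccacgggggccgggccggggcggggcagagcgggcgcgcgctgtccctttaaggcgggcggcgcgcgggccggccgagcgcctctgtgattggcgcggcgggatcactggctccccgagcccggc
A match is only a run of letters and no match says nothing about TCF binding elsewhere. Tnfrsf19 and Axin2 each differed between couples in sign, as given above.

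Sox9, a transcription factor of crypt base progenitors that is also required for Paneth cells, was 5.44, 5.40 and 1.83 in KO libraries of couples 1, 2 and 3, against 3.91, 6.82 and 2.88 in their WT littermates. It was higher in KO in couple 1 and lower in couples 2 and 3. The log2 difference was -0.12 (SE 0.38, limma adjusted p = 0.921; 0.665 with the block). The Paneth cell list, by contrast, had 11 of 12 tested genes above 0, of which 0 passed without the block and 4 passed as higher with it. With any couple left out of the blocked fit, 1 to 2 passed as higher and 0 to 1 as lower. Paneth cell marker sums were 11723 to 15682 in KO and 7785 to 14196 in WT libraries, with none of the 13 markers at 0 in every untreated library; their part in the Sox9 values was not tested.

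Myc, the transcription factor that drives growth and division of crypt progenitors, showed the opposite picture to Lgr5. It was 11.9, 12.2 and 7.33 in KO libraries of couples 1, 2 and 3, against 7.27, 8.43 and 5.02 in their WT littermates, and its KO to WT ratio was 1.64, 1.45 and 1.46. KO was the higher littermate in each couple, as for 28.1% of tested genes. The ranges overlapped, because the lowest KO value (couple 3) lay below the highest WT value (couple 2). The group values were 10.5 ± 2.73 in KO and 6.91 ± 1.73 in WT ileum (SD, n = 3 each), a log2 difference of 0.53 (SE 0.25, 95% interval -0.04 to 1.11, limma adjusted p = 0.351). With the couple as a block, Myc passed (SE 0.08, limma adjusted p = 0.0231), as did 8.40% of tested genes in the higher direction. That call was lost when any couple was left out of the blocked fit, with adjusted p of 0.0734, 0.0774 and 0.0753 without couples 1, 2 and 3 and log2 differences of 0.48 to 0.56. Over all tested genes, calls as higher fell from 984 to between 130 and 276 in the same fits. In GRCm38 the Myc gene occupies bases 61985391 to 61990374 of chromosome 15, on the plus strand.

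Myc is expressed in many dividing and activated cells, and other gene lists differed in the same libraries. All 24 cell cycle genes had a difference above 0 (median 0.43, 0 passing without the block and 14 higher with it), and their summed value was 301 to 375 in KO and 227 to 268 in WT libraries. With any couple left out of the blocked fit, 0 to 1 of the 24 passed. Among the most abundant, Cdc20, an activator of the anaphase-promoting complex, was 24.7 ± 3.47 in KO and 16.2 ± 2.01 in WT ileum, and Pcna, the sliding clamp of DNA replication, was 42.8 ± 7.52 in KO and 35.0 ± 6.36 in WT ileum (SD, n = 3 each; limma adjusted p = 0.165 and 0.582; 0.0178 and 0.055 with the block). T cell markers, with 8 of 8 tested genes above 0 and 1, Cd3g, passing as higher, summed to 45.6 to 54.2 in KO and 15.0 to 28.4 in WT libraries. The Cd3g call was lost in 3 of 6 fits that left out 1 library, those without KO or WT of couple 3 or KO of couple 1 (adjusted p of up to 0.0861). Macrophage markers had 4 of 7 above 0 and 3 below, with Cd14 passing as higher. They summed to 128 to 220 in KO and 76.5 to 103 in WT libraries, and most of each sum was Lyz2. Lyz2 was 185, 94.2 and 174 in KO libraries of couples 1, 2 and 3, against 80.1, 62.1 and 48.2 in their WT littermates. B cell and follicle markers, with 5 of 6 above 0 and 0 passing, summed to 8.27 to 96.1 in KO and 4.39 to 49.5 in WT libraries. None of the cell cycle, T cell, macrophage or B cell markers in the table was at 0 in every untreated library, and the part of these cells in the Myc values was not tested. Centred on the pan-epithelial markers, the log2 differences of Myc and Lgr5 were 0.55 and -0.45 (limma adjusted p = 0.877 and 0.975 without the block, and 0.0358 and 0.139 with it).

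**Figure D3:**
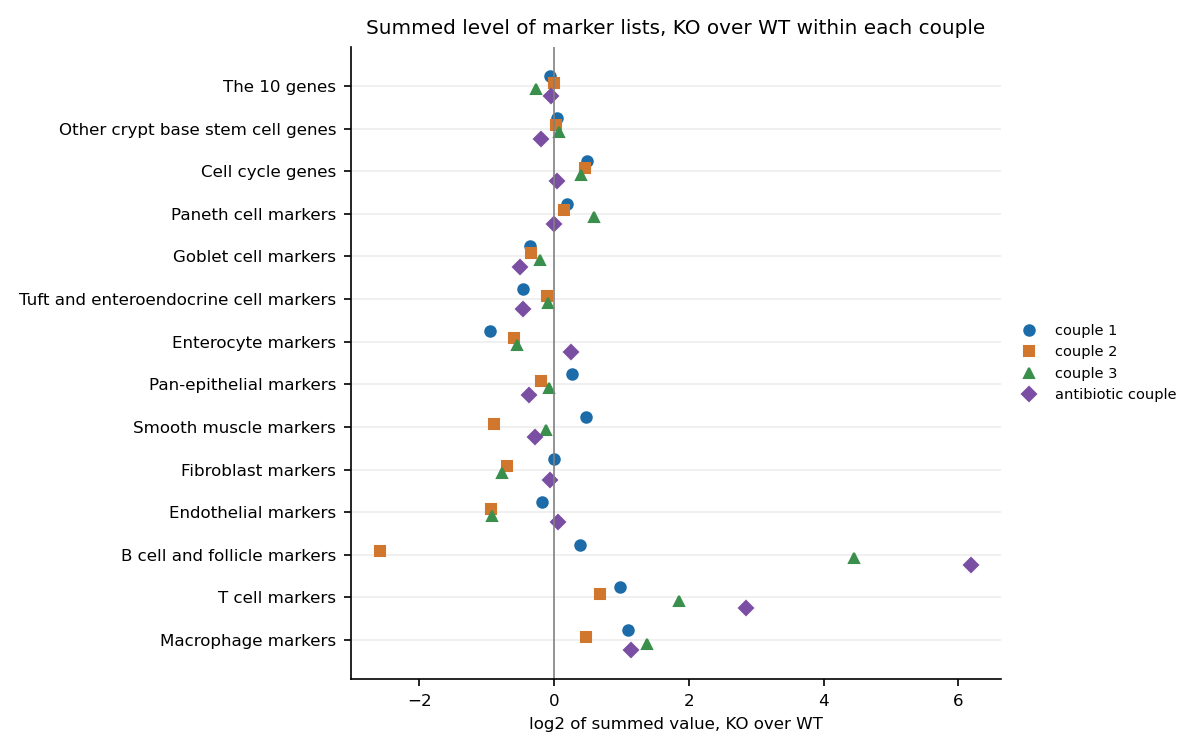
log2 of the summed value of each marker list in the KO library over that in its WT littermate (x axis) for the 4 couples, with lists down the page. The antibiotic points leave out genes faulty in the antibiotic WT library, namely 10 of 13 Paneth cell markers, Plk1, Actg2, Pax5 and Fcer2a. The antibiotic point of the Paneth cell list thus cannot be compared with its untreated points. The T cell and macrophage lists lie to the right of 0 in each couple, the macrophage sum being mostly Lyz2. The cell cycle list lies at 0.40 to 0.49 in the untreated couples and at 0.04 in the antibiotic couple. The B cell list differs between couples by several log2 units, and the sum of the 10 genes, most of which is Olfm4, lies between -0.27 and 0.

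Other Wnt target and feedback genes differed among themselves as well. Of 13 listed, 8 were tested, with 0 passing without the block, 2 higher and 2 lower with it, and a median log2 difference of 0.16. With any couple left out of the blocked fit, 0 to 1 passed as higher and 0 as lower. Ccnd1, the cyclin that carries cells into S phase, was 78.4, 65.9 and 45.0 in KO libraries of couples 1, 2 and 3, against 28.3, 27.1 and 26.9 in their WT littermates. Its groups did not overlap, as in 10.4% of tested genes with KO higher, and its log2 difference was 1.14 (SE 0.23, limma adjusted p = 0.0534; 0.0202 with the block). Cd44, an adhesion receptor of crypt cells that leukocytes also carry, was 7.96 ± 2.39 in KO and 4.55 ± 1.38 in WT ileum (SD, n = 3 each; log2 difference 0.69, limma adjusted p = 0.244; 0.0165 with the block). Nkd1 and Nkd2, inhibitors of Dishevelled, were the 2 lower genes with the block and are named after their values were seen. Their log2 differences were -0.45 and -0.53 (limma adjusted p = 0.329 and 0.2; 0.0454 and 0.0339 with the block). Ephb2, an ephrin receptor that positions crypt cells, had a log2 difference of 0.08 (limma adjusted p = 0.93).

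Wnt ligands, receptors and inhibitors were mostly below 0, and 1 gene passed the unblocked test. Sfrp5, a secreted Frizzled-related protein that binds Wnt ligands, fell to 0.279, 0.740 and 0.266 in KO libraries of couples 1, 2 and 3, against 1.82, 4.15 and 3.09 in their WT littermates. Its log2 difference was -1.47 (SE 0.26, limma adjusted p = 0.0353; 0.012 with the block). It passed the filter on low values through the WT libraries alone, since all 3 KO values lay below 1, so at these levels only a lower KO value could have been tested. The call was lost in 5 of 6 fits that left out 1 library, all but that without WT of couple 1, with adjusted p of up to 0.131 and log2 differences of -1.70 to -1.27. The other 3 tested inhibitors, Dkk3, Sfrp1 and Kremen1, had log2 differences of -0.37, -0.69 and -0.11 and did not pass in either fit.

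Of 25 Wnt, R-spondin and Wnt-secretion genes, 5 passed the filter on low values, and all 5 were below 0 (median -0.51), with 0 passing without the block and 3 lower with it. All 3 of those calls were lost whichever couple was left out. Wls, which carries Wnt ligands to the cell surface, was 9.77, 5.95 and 8.21 in KO libraries of couples 1, 2 and 3, against 14.8, 10.04 and 10.5 in their WT littermates (log2 difference -0.51, SE 0.22, limma adjusted p = 0.317; 0.0341 with the block). Wnt2b and Wnt4, ligands made by the mesenchyme, had log2 differences of -0.75 and -0.64 (limma adjusted p = 0.171 and 0.179; 0.0485 and 0.035 with the block). Of 11 tested receptors, 10 were below 0 (median -0.35), with 0 passing without the block and 3 lower with it, Fzd2, Fzd4 and Fzd5. These 3 calls too were lost whichever couple was left out. Over all tested genes, calls as lower fell from 1161 to between 126 and 303 in the same fits. Fzd5, a Frizzled receptor of the intestinal epithelium, was 21.2 ± 2.78 in KO and 28.4 ± 3.43 in WT ileum (SD, n = 3 each; log2 difference -0.41, limma adjusted p = 0.312; 0.0465 with the block). Lgr4, the R-spondin receptor related to Lgr5, was 18.8 ± 3.41 in KO and 15.7 ± 2.07 in WT ileum (log2 difference 0.24, SE 0.19, limma adjusted p = 0.585; 0.0901 with the block).

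Markers of the mesenchyme were also mostly below 0. All 7 tested fibroblast markers were below 0 (0 passing without the block, 1 lower with it and 1 to 2 with a couple left out of that fit), and they summed to 84.2 to 156 in KO and 136 to 161 in WT libraries. All 6 tested endothelial markers were below 0 (0 passing without the block, 2 lower with it and 0 to 1 with a couple left out of that fit), and they summed to 10.5 to 19.4 in KO and 19.9 to 24.5 in WT libraries. Smooth muscle markers had 4 of 8 above 0 and 0 passing in either fit, and summed to 397 to 658 in KO and 471 to 739 in WT libraries. None of these markers was at 0 in every untreated library, and their part in the ligand values was not tested. The fibroblast marker sum of KO over WT was 0.01, -0.69 and -0.78 on the log2 scale in couples 1, 2 and 3. Intracellular pathway genes, with 14 of 17 tested below 0 and a median of -0.20, had 0 passing without the block and 1 higher and 3 lower with it. With any couple left out of the blocked fit, 0 passed as higher and 0 to 1 as lower. Ctnnb1, the gene of beta-catenin, was 143 ± 41 in KO and 158 ± 29.9 in WT ileum (SD, n = 3 each; log2 difference -0.17, SE 0.28).

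**Figure D4:**
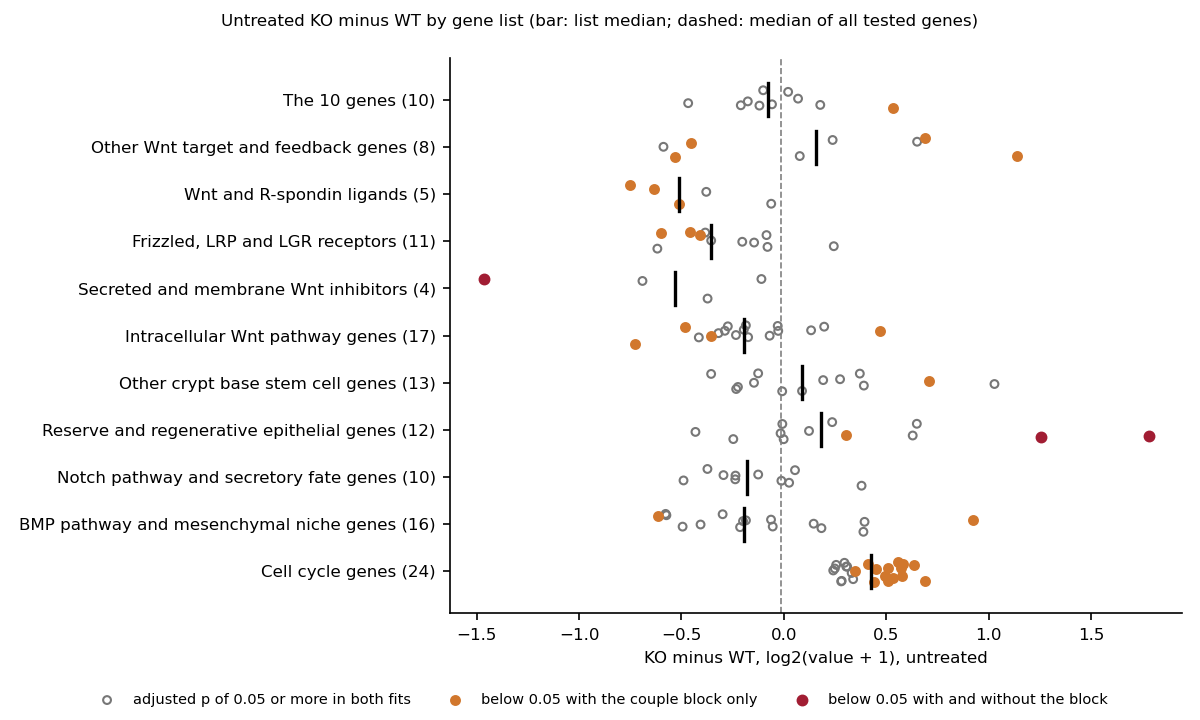
Fitted KO minus WT difference on the log2(value + 1) scale (x axis) for every tested gene of each list (number tested in brackets), coloured by whether the limma adjusted p was below 0.05 with the couple block only or with and without it. The 10 genes spread around 0, ligands and inhibitors lie to the left, cell cycle genes lie to the right, and of the 11 lists drawn, 2 hold genes called in both fits (Sfrp5 among the inhibitors, Ly6a and Il33 among the regenerative genes).

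Of the enterocyte, goblet, and tuft and enteroendocrine lists, only the enterocyte list held genes that passed without the block. Enterocyte markers had 12 of 13 tested genes below 0, and Lct, the lactase gene, and Mep1a, a brush border protease gene, fell in KO (8 lower and 1 higher with the block, and 1 to 6 lower and 0 higher with a couple left out of that fit). The Mep1a call was lost in 5 of 6 fits that left out 1 library, all but that without KO of couple 3 (adjusted p of up to 0.131), and that of Lct in 0 of 6. Goblet cell markers had 0 of 9 passing without the block and 2 higher and 2 lower with it (1 higher and 0 to 1 lower with a couple left out of that fit), and tuft and enteroendocrine markers had 0 of 5 passing in either fit. The part of these cells in the values of the 10 genes was not tested.

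Other crypt base stem cell genes had a median log2 difference of 0.09 over 13 tested genes (7 above 0), with 0 passing without the block and 1, Prom1, higher with it (0 to 1 with a couple left out of that fit). Slc12a2, a basolateral chloride cotransporter enriched in crypts, was 20.4 ± 7.08 in KO and 24.1 ± 8.27 in WT ileum, and Cdca7 was 13.5 ± 2.56 in KO and 10.9 ± 1.15 in WT ileum (SD, n = 3 each; limma adjusted p = 0.772 and 0.515). In the list of reserve and regenerative epithelial genes, 2 of 12 tested rose in KO, Ly6a and Il33, and 3 with the block, which added Hopx (2 with any couple left out of that fit). Ly6a, the Sca-1 antigen of regenerating epithelium and of lymphocytes, was 30.0, 17.9 and 25.3 in KO libraries of couples 1, 2 and 3, against 10.7, 7.02 and 10.98 in their WT littermates (log2 difference 1.26, SE 0.24, limma adjusted p = 0.0499; 0.0067 with the block). Its unblocked call was lost in 6 of 6 fits that left out 1 library (adjusted p of 0.0533 to 0.141). Il33, an alarmin cytokine, was 19.7, 10.7 and 13.4 in KO libraries of couples 1, 2 and 3, against 5.23, 2.61 and 2.83 in their WT littermates (log2 difference 1.78, SE 0.28, limma adjusted p = 0.0244; 0.00489 with the block). Its call was lost in 4 of 6 such fits, without KO or WT of couple 3, KO of couple 1 or WT of couple 2 (adjusted p of up to 0.102). Notch pathway genes (10 tested, median -0.18) had 0 passing in either fit, and BMP and niche genes (16 tested, median -0.19) had 0 passing without the block and 1 higher and 1 lower with it (0 to 1 higher and 0 lower with a couple left out of that fit). Hes1, a transcriptional effector of Notch, was 11.01 ± 1.45 in KO and 10.9 ± 1.94 in WT ileum, and Id1, a target of BMP signalling, was 80.8 ± 18.6 in KO and 41.9 ± 8.08 in WT ileum (SD, n = 3 each; log2 differences 0.03 and 0.93, limma adjusted p = 0.965 and 0.108; 0.874 and 0.0424 with the block).

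In the couple given antibiotics there was 1 library per genotype, so the differences within it had no test of their own. Lgr5 was 0.618 in KO against 1.23 in WT, a ratio of 0.504, and was again the lower littermate. In all 4 couples 21.1% of tested genes were lower in KO, over the 11341 without faults in the antibiotic WT library. Myc was 6.94 in KO against 5.20 in WT, a ratio of 1.33, and was again the higher littermate, as were 14.1% of tested genes in all 4 couples. Olfm4 was 151 in KO against 155 in WT, and so it too was the lower littermate in all 4 couples. Ascl2 was 1.85 in KO against 1.95 in WT, and Smoc2 was 12.6 against 13.0. Axin2 was 6.30 in KO against 7.60 in WT, Znrf3 was 0.871 against 1.16, Sox9 was 2.74 against 3.28 and Tnfrsf19 was 0.750 against 1.05. Rnf43, at 4.69 in KO against 4.51 in WT, was with Myc the only one of the 10 with the higher value in KO. None of the 10 carried a value shared with another gene in the antibiotic WT library, where 376 genes did.

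The dependence of the KO minus WT difference on antibiotics was tested with 1 mean per group over all 8 libraries, where the spread comes from the untreated libraries. Of 11520 tested genes, 0 passed (limma; 4.19% had an unadjusted p under 0.05), and 0 passed with the couple block (16.1% unadjusted). For Lgr5 the antibiotic couple differed from the untreated couples by 0.01 on the log2 scale (SE 0.39, 95% interval -0.91 to 0.93, limma adjusted p = 0.999). For Myc it differed by -0.18 (SE 0.49, 95% interval -1.32 to 0.97, limma adjusted p = 0.999). The largest of the 10, that of Axin2, was -0.41 (SE 0.53, limma adjusted p = 0.999; 0.431 with the block). Of the other lists, Ccnd1, Ly6a, Il33, Lct, Id1 and the cell cycle sum are given here after their values were seen. Ccnd1 was 19.3 in KO against 19.5 in WT, Ly6a was 7.32 against 7.51 and Il33 was 3.72 against 3.37. Their dependence on antibiotics was -1.16, -1.29 and -1.67 on the log2 scale, with limma adjusted p of 0.999, 0.999 and 0.997 (0.223, 0.117 and 0.0862 with the block). Lct was 138 in KO against 136 in WT and Id1 was 29.6 against 89.8, where untreated couples had Lct lower and Id1 higher in KO. The dependence on antibiotics was 3.25 for Lct and -2.49 for Id1 on the log2 scale, and neither passed. Cell cycle genes without Plk1, which was faulty in the antibiotic WT library, summed to 179 in KO against 174 in WT. Sfrp5 was 0.363 in KO against 1.31 in WT, in the direction of the untreated couples.

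Levels with and without antibiotics could only be set side by side and carry no test. Treatment coincided with 1 litter and with values treated as 1 separately normalized set. In KO ileum under antibiotics, 5 of the 10 genes (Lgr5, Smoc2, Axin2, Myc and Tnfrsf19) lay below the range of the 3 untreated KO libraries, as did 41.2% of tested genes, and 0 lay above it, as did 19.3%. In WT ileum under antibiotics, 3 of the 10 (Lgr5, Ascl2 and Smoc2) lay below the untreated WT range, as did 40.2% of tested genes, and 0 lay above it, as did 9.83%. By percentile rank within a library, which does not depend on the scale of a set, Lgr5 and Smoc2 lay below the untreated range in both genotypes. In KO ileum 3 of the 10 (with Axin2) lay below it, against 30.1% of tested genes, and 1, Rnf43, lay above it, against 30.7%. In WT ileum 2 lay below it, against 18.8%, and 0 above it, against 24.1%. Lgr5 stood at percentile 1.82 in KO under antibiotics, against 1.91 to 8.59 in untreated KO libraries, and at 10.4 in WT under antibiotics, against 11.4 to 14.2 in untreated WT libraries. Smoc2 stood at 70.4 in KO under antibiotics, against 74.5 to 78.4 in untreated KO libraries, and at 71.9 in WT under antibiotics, against 75.2 to 76.1 in untreated WT libraries.

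**Figure D5:**
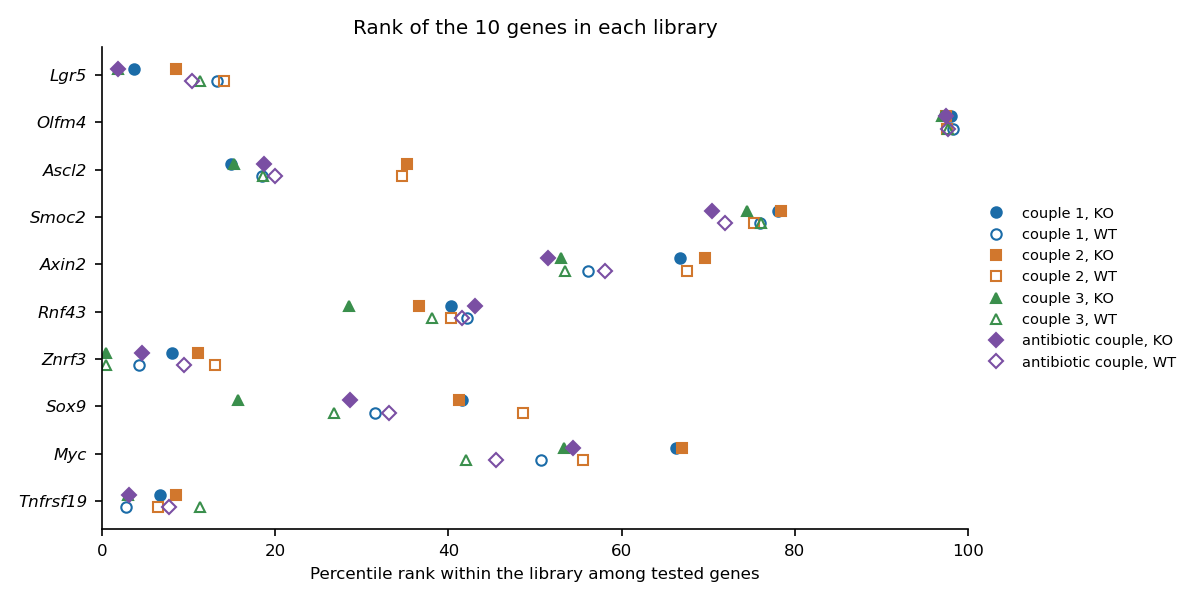
Percentile rank of each of the 10 genes among tested genes within a library (x axis, 0 to 100), with filled symbols for KO and open symbols for WT and a shape per couple. Olfm4 ranks above 97 in every library and Lgr5 below 15, and Ascl2 ranks higher in both libraries of couple 2 than in the others.

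By rank the 10 genes kept an order of Olfm4, then Smoc2, with Lgr5, Znrf3 and Tnfrsf19 at the low end, and the ranks of neighbours such as Axin2 and Myc, or Rnf43 and Sox9, overlapped across libraries. Over the 4 couples, the 5 tested genes whose KO minus WT differences lay closest to those of Lgr5, among 5625 genes of at least median level, were Chdh, BC021891, Slc25a10, Adk and Coq4. Their root mean square difference from Lgr5 was 0.07 to 0.10 on the log2(value + 1) scale. Chdh, a mitochondrial choline dehydrogenase, had differences of -0.46, -0.39, -0.61 and -0.39 in couples 1, 2, 3 and the antibiotic couple, against -0.50, -0.28, -0.62 and -0.46 for Lgr5. The likeness holds on this scale only, which understates the change of Lgr5 more than that of these higher genes. With a pseudocount of 0.1 the untreated difference of Lgr5 was -0.79 in place of -0.47.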

How the data were processed

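Polyadenylated RNA of 8 whole ileal tissue sections was sequenced on Illumina HiSeq 2000 or Ion Proton instruments, per the series' design text. The authors used CLC Genomics Workbench 7.5 and the GRCm38.76 reference. The deposited values are unnamed and were taken as RPKM from their behaviour; neither the counting rule nor the scaling of the authors is given in the sources used here. Sorted values were identical in the 4 libraries of couples 1 and 2, so the authors' values were treated as 3 separately normalized sets. Couple 3 and the antibiotic couple were each treated as 1 set, although their littermates did not share a distribution. Genes above 0 numbered 11931 in KO and 11912 in WT of couple 3, and 13749 in KO and 13672 in WT of the antibiotic couple. Depth is unknown and no counting interval was computed.

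Values were analysed as log2(value + 1). Genes with at least 1 in at least 3 of 6 untreated libraries were tested with limma 3.58.1 with a mean-dependent prior variance, in R 4.3.3, adjusted over all tested genes at 0.05, without a block. The antibiotic dependence used all 8 libraries and left out 423 genes with faults of the antibiotic WT column (tied values, 0 against at least 1 in KO, or over 3 log2 units low). That rule was set with the values known. Shares of tested genes over all 4 couples, and shares outside untreated ranges, also left these genes out. They are over 11341 of the 11717 tested genes. Part of the rule picks genes low in antibiotic WT, and its effect on these shares was not tested. A couple number stands for 1 litter in the labels. Deviations of littermates from their genotype's mean correlated across genes at 0.62, 0.64 and 0.51 in couples 1, 2 and 3, where a shared normalization set enters too. Each mouse is 1 library. Without the block, p-values measure the spread between mice of a genotype, which includes litter and normalization set. With the block, they measure the spread of the differences within couples.

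The members and lists were chosen with earlier results of these data known. All members are named. Other genes named come from those called in a list or among its 3 of highest level; of the rest, some are named after their values were seen, such as genes that passed with the block alone. Alternatives were the block, pseudocount, filters, scalings, trend and left-out libraries. Gene positions come from GENCODE M21.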

Additional observations from a re-analysis of the deposited data

Results flagged for a closer look

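Rnf43 was lower in KO in all 3 untreated couples (log2 difference -0.08, -0.15 and -0.41 in couples 1, 2 and 3) and higher in KO in the antibiotic couple (0.04). The test of this difference gave 0.25 (SE 0.39, limma adjusted p = 0.999; 0.548 with the couple block). Ascl2 was lower in KO in both untreated female couples (-0.18 and -0.15 in couples 1 and 3) and higher in KO in the male couple (0.02). With 1 male couple that difference was not tested.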

How the results depend on the processing

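Lgr5 was below 0 in 19 of 19 alternatives for the untreated comparison (-0.79 to -0.32, adjusted p of 0.0541 to 0.975) and Myc above 0 in 20 of 20 (0.35 to 0.75, adjusted p of 0.0231 to 0.877). Olfm4 and Rnf43 also stayed below 0, and Smoc2 and Axin2 above 0, in their 20 alternatives each. The block, the filters and the trend cannot change a difference itself, and differences with a couple left out are the same with and without the block. For Lgr5, whose untreated groups did not overlap, leaving out any library had to keep it below 0. These counts of signs are therefore not a test of the differences. The strict filter (at least 1 in all 6 libraries) left no value for Lgr5, Znrf3 and Tnfrsf19. With the replicate block 1 of the 10 genes was called higher (984 higher and 1161 lower over all tested genes, against 135 and 118 without it); with the block and pan-epithelial centring, added after seeing the data, 1 was called higher (654 and 708 over all genes). The block changed no other call among the 10. Without the filter on low values 7 genes were called higher and 4 lower over all genes. Leaving out 1 library gave 43 to 76 higher and 25 to 79 lower, leaving out couple 1, 2 or 3 with the block 130, 231 and 276 higher and 126, 243 and 303 lower, and leaving out 1 couple without it, added after seeing the data, 0 and 0. None of these left-out fits called any of the 10 genes.

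Values that changed sign did so without passing the test in either direction, and the cause was not tested. When 1 library was left out, the untreated difference ranged from -0.41 to 0.14 for Ascl2, from -0.34 to 0.28 for Sox9, from -0.14 to 0.065 for Tnfrsf19 and from -0.41 to 0.46 for Znrf3. When 1 couple was left out, with the replicate block or without it, the range was -0.37 to 0.050 for Sox9, -0.18 to 0.15 for Tnfrsf19 and -0.051 to 0.082 for Znrf3. The dependence on antibiotics with 1 library left out ranged from -0.14 to 0.14 for Lgr5 (-0.095 with a pseudocount of 0.1), from -0.19 to 0.36 for Ascl2, from -0.47 to 0.15 for Sox9, from -0.67 to 0.20 for Znrf3 and from -0.39 to 0.0091 for Myc. No scaling moved the median of all genes by over 0.1. Unknown depth limits Lgr5, Znrf3 and Tnfrsf19 most, whose values lie near 1.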
